A study of Mus musculus with 12 samples.

Results

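The 10 genes Spp1, Gpnmb, Lgals3, Trem2, Apoe, Lpl, Fabp5, Cd9, Cd63 and Cd68, which mark the SPP1-expressing, lipid-associated macrophages of scarred lung, were followed through bleomycin lung fibrosis in mice. They are named as markers of these cells, and the choice was made with earlier results of these data known. They make up 10 of the 55491 entries of the expression tables. All 10 were found and all 10 were among the 17909 genes with enough counts to be tested. The lowest expected count of any of them in any library was 514 (Trem2).

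Lipid-associated macrophages arise mainly from monocytes that enter injured tissue, take up lipid from dying cells and surfactant, and enlarge their lysosomes. TREM2 is their lipid-sensing surface receptor and signals through the adaptor TYROBP, while apolipoprotein E, lipoprotein lipase and fatty acid binding protein handle the lipid. In fibrotic lungs such cells lie in the scar and secrete osteopontin, the product of Spp1, which binds integrins and CD44 on fibroblasts and other cells. Several of these genes are also active in other lung cells: Apoe, Lpl and Fabp5 in epithelial or mesenchymal cells, Lgals3 in injured epithelium, and Cd9 and Cd63 in most cell types.

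Messenger RNA was sequenced from whole lungs (all 5 lobes, without trachea and large airways) of 12 wild-type C57BL/6J male mice aged 10 weeks. Every mouse had received oropharyngeal bleomycin, a drug that injures the alveoli and leaves a scar, at 0.0125 U per mouse or about 0.5 U/kg. The 3 groups of 4 mice were lungs taken at day 14 before treatment, lungs taken at day 21 after intravenous saline (vehicle), and lungs taken at day 21 after intravenous nanoparticles. The nanoparticles were made of poly(lactide-co-glycolide) with poly(ethylene-alt-maleic anhydride) as the surfactant and measured 609.22 ± 15.30 nm. They were injected retro-orbitally, suspended in phosphate-buffered saline, in 5 daily doses of 2 mg each from day 14 to day 18. Uninjured lungs are not analysed here, so no value shows how far a gene stood above its level in a healthy lung. The time points come from different mice. These are bulk samples, in which fewer cells of a type and less RNA per cell cannot be told apart.

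Total expected counts ran from 24138582 to 42714693 per library. Levels are given in TPM, a transcript abundance scaled by transcript length and library total so that genes can be compared with each other. The 4 values of a group are always given in the order of mice 1 to 4, and means are followed by the SD with n = 4. Differences between groups are log2 fold changes from edgeR's quasi-likelihood test on the counts, with Benjamini-Hochberg adjustment over all genes tested. A gene is said to have risen or fallen where the adjusted p was under 0.05. Overlap between groups was judged on CPM, the counts scaled by library size.

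The tissue held RNA of 15 genes shared by most macrophages (such as Adgre1, Csf1r and C1qa) in every library. Their mean log2 CPM was 5.75 to 6.53, and none of the 15 was at 0 in every lung of a group. Nanoparticle replicate 3 stood apart. Its 9 neutrophil genes summed to 5783 TPM, against 142 to 589 TPM in the 11 other libraries, and its 13 alveolar macrophage genes summed to 2535 TPM, against 1013 to 1837 TPM. Tests of the 10 genes that rest on this library are given with and without it.

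The 250 bases before the RefSeq start of the transcript are shown for 4 of the genes that fell after day 14, so that the sequences of genes that moved in one direction can be set side by side. Coordinates are in GRCm38, sequences are printed 5′ to 3′ on the strand of the gene, and capitals mark matches to the searched motifs. Spp1 and Apoe had several starts in the table, and the one nearest to the annotated 5′ end of the gene was used. The single start listed for Cd63 lies inside the annotated span of the gene given below, so that its window does too, and the same holds for Lgals3.
Spp1, chr5:104434861-104435110, plus strand: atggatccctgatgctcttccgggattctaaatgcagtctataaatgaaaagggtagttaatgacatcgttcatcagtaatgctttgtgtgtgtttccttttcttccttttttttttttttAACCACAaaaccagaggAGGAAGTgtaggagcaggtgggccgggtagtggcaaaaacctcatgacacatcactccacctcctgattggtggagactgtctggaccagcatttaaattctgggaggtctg
Trem2, chr17:48346151-48346400, plus strand: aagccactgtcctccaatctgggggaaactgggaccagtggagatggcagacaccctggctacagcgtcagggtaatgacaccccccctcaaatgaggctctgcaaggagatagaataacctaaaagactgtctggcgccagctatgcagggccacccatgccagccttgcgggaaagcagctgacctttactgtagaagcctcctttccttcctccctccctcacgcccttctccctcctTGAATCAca
Cd68, chr11:69666171-69666420, minus strand: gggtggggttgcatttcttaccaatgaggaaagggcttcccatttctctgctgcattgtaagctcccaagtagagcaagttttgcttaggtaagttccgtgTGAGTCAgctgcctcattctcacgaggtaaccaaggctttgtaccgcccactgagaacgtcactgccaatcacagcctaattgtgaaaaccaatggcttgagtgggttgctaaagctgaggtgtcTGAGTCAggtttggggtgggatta
Cd63, chr10:128909095-128909344, plus strand: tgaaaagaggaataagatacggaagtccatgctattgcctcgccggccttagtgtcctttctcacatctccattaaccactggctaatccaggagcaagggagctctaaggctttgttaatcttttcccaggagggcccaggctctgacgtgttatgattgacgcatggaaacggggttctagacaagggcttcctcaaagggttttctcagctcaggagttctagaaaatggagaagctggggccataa

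In the Spp1 window the PU.1-type motif AGGAAGT began 112 bases before the start and the RUNX-type motif AACCACA began 129 bases before it. PU.1 and RUNX1 are transcription factors of the myeloid lineage. Trem2 held 1 AP-1 motif (TGANTCA, as TGAATCA, 9 bases before the start), and Cd68 held 2 (as TGAGTCA, 149 and 24 bases before the start). AP-1 is the dimer of JUN and FOS proteins. Gpnmb held only AACCACA, 176 bases before its start, and the windows of Cd63, Lgals3, Cd9 and Apoe held no match. No member held the MITF/TFE sites CACGTG or TCATGTG. Both strands were searched. Among all 32851 promoter windows of the table, 6.75% held TGANTCA, 7.69% AGGAAGT, 4.40% AACCACA, 6.02% CACGTG and 3.25% TCATGTG. The motifs were chosen after the windows had been seen, and a match is a run of letters, not a measured binding site. RefSeq entries matched 8 of the 10 genes, all except Fabp5 and Lpl.

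The 10 genes spanned a wide range of abundance. At day 14 Apoe was the most abundant at 3225 ± 313 TPM and ranked 20th among all genes. Spp1 followed at 1369 ± 218 TPM and ranked 65th, then Cd9 at 706 ± 38.3, Cd63 at 515 ± 42.8 and Lgals3 at 393 ± 25.4 TPM. Fabp5 stood at 195 ± 8.35, Cd68 at 173 ± 1.76 and Lpl at 152 ± 8.08 TPM. Gpnmb at 69.5 ± 14.99 and Trem2 at 62.4 ± 4.43 TPM were the lowest, and they were the only neighbours in this order whose ranges overlapped at day 14. The receptor gene thus had the lowest mean of the 10. By day 21 Spp1 had come closer to Cd9, the next gene in the day 14 order. It stood at 716 ± 167 TPM with vehicle and 622 ± 186 TPM with nanoparticles, and its range overlapped that of Cd9 in both groups. Its rank among all genes went from 65 to 145 with vehicle and to 179 with nanoparticles, while Apoe ranked 33rd and 27th. The 10 genes together made up 0.634 to 0.752% of all TPM at day 14, 0.409 to 0.540% with vehicle and 0.403 to 0.684% with nanoparticles, where the highest value was that of replicate 3.

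**Figure D1:**
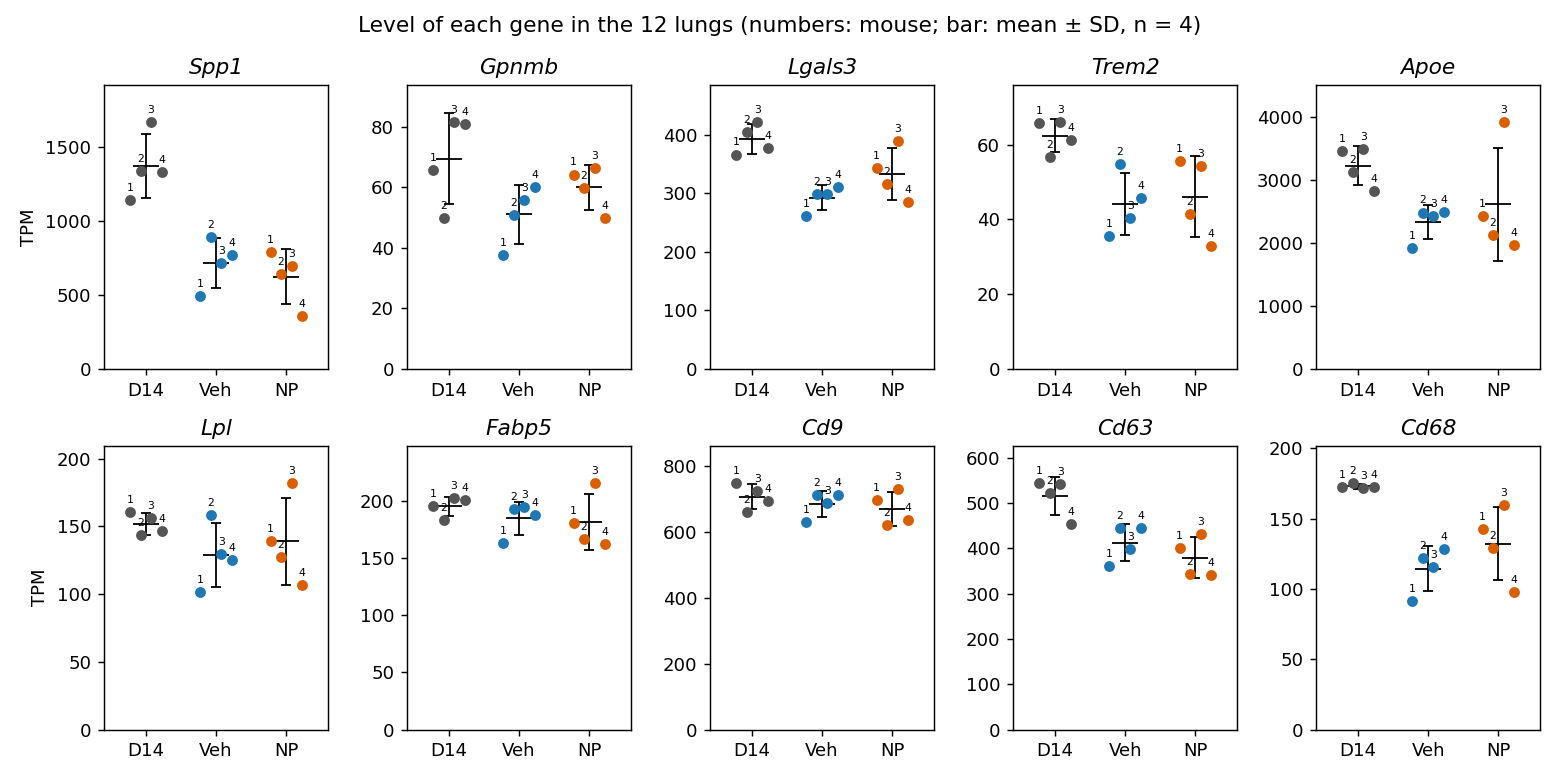
Level in TPM (vertical axes, from 0) of each of the 10 genes in the 12 lungs, by group on the horizontal axes: D14, day 14; Veh, vehicle at day 21; NP, nanoparticles at day 21. Each point is 1 mouse with its number, and bars are mean ± SD of 4. The 4 day 14 points of Spp1 lie between 1143 and 1667 TPM, above all 8 points of day 21, whereas the points of Cd9 and Fabp5 overlap in the 3 groups.

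The first comparison asks how the genes differed between day 14 and vehicle lungs of day 21, without nanoparticles. Day 14 lungs were taken before treatment, so here and in the next comparison time and the injections cannot be told apart. All 10 values were below 0, and 5 genes fell: Spp1, Lgals3, Trem2, Cd63 and Cd68. Over all genes tested 6.51% fell in the same comparison and 10.3% changed in either direction. The median log2 fold change of the 10 genes was −0.41, against 0.0031 over all genes. In 5 genes all 4 vehicle lungs lay below all 4 day 14 lungs, which 10.7% of all genes did in this direction. No member rose (3.79% of all genes did), and none was higher without overlap (7.2% of all genes). With each library left out in turn 1 to 6 members fell, and the genes that changed in either direction went from 1845 to between 719 and 2162.

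The second comparison sets nanoparticle-treated lungs at day 21 against the same day 14 lungs. Again all 10 values were below 0, but only Spp1 and Cd63 fell, where 8.56% of all genes fell and 14.7% changed in either direction. The median log2 fold change was −0.29, against 0.0062 over all genes. In 4 genes (Spp1, Trem2, Cd63 and Cd68) all 4 nanoparticle lungs lay below all 4 day 14 lungs, as 10.6% of all genes did. No member rose or was higher without overlap, where 6.16% and 8.47% of all genes were. Without nanoparticle replicate 3, 6 genes fell (Spp1, Trem2, Cd63, Apoe, Lgals3 and Cd68), where 8.68% of all genes fell, and 8 genes were lower without overlap, where 15% of all genes were. With each library left out in turn 2 to 6 members fell, and the genes that changed in either direction went from 2636 to between 1363 and 2934. Both comparisons use the same day 14 lungs, so their falls are not independent of each other.

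The third comparison, nanoparticles against vehicle at day 21, addresses the effect of the particles themselves. No member passed the test in edgeR's quasi-likelihood fit (adjusted p = 0.999 for each), and 4 values were below 0 and 6 above. None of the 17909 genes passed it (0%). In the same fit 762 genes had an unadjusted p under 0.05, none of them a member (unadjusted p of members 0.116 to 0.845). DESeq2 called 19 genes, none of them a member. The median log2 difference of the 10 genes was 0.11, against 0.0020 over all genes, and no member had groups without overlap, where 1.75% of all genes were lower and 1.8% higher without overlap. The largest differences in size were 0.22 for Cd68, with a 95% interval from −0.06 to 0.50, 0.21 for Gpnmb, from −0.14 to 0.57, and −0.21 for Spp1, from −0.72 to 0.30. These intervals are wide: they leave room for a fall of Spp1 by 0.72 as well as for a rise by 0.30 on the log2 scale.

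**Figure D2:**
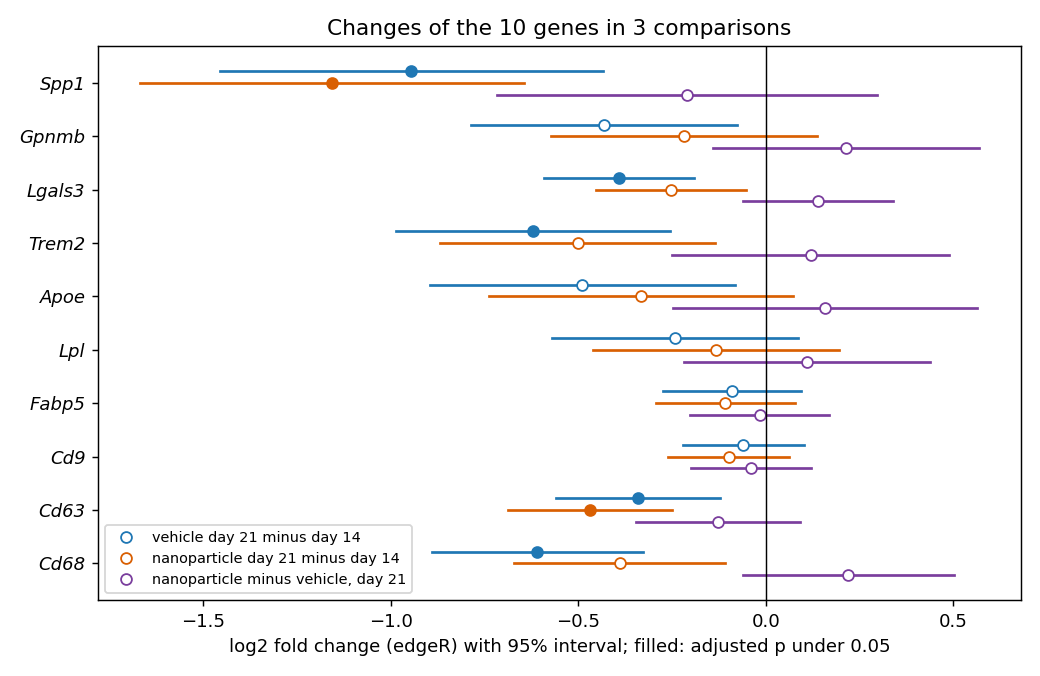
Log2 fold change (horizontal axis) of the 10 genes in the 3 comparisons, as points with 95% intervals from edgeR; filled points have an adjusted p under 0.05. The blue and orange points, both against day 14, lie left of 0 for all 10 genes, and Spp1 lies farthest left at −0.95 and −1.16, whereas every purple interval (nanoparticles against vehicle) crosses 0.

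Among the secreted and shed products, Spp1 (ENSMUSG00000029304, chromosome 5, 104435118 to 104441050 on the plus strand) encodes osteopontin, a matrix protein and cytokine that binds integrins. Its levels were 1143, 1339, 1667 and 1327 TPM at day 14, 489, 888, 714 and 772 TPM with vehicle, and 791, 642, 697 and 359 TPM with nanoparticles. All 8 lungs of day 21 were below all 4 lungs of day 14, and vehicle replicate 1 and nanoparticle replicate 4 were the lowest. Spp1 fell by 0.95 on the log2 scale with vehicle (SE 0.23, 95% interval −1.46 to −0.44, adjusted p = 0.0276) and by 1.16 with nanoparticles (SE 0.23, −1.67 to −0.64, adjusted p = 0.00871). Both falls were the largest of the 10 genes. With vehicle the call depended on single lungs and did not pass when day 14 replicate 2 or 3, or vehicle replicate 1 or 3, was left out (adjusted p = 0.0543 to 0.0825). With nanoparticles it was kept without each library in turn.

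Gpnmb (ENSMUSG00000029816, chromosome 6, 49036546 to 49070929, plus strand) encodes a transmembrane glycoprotein of late endosomes and lysosomes whose outer part is shed. It measured 65.6, 49.9, 81.6 and 80.8 TPM at day 14, 37.7, 50.8, 55.7 and 60.1 TPM with vehicle, and 64.2, 59.8, 66.3 and 49.7 TPM with nanoparticles. The groups overlapped. Day 14 replicate 2 lay within the range of both day 21 groups, and nanoparticle replicate 3 was also above day 14 replicate 1. The difference was −0.43 with vehicle (SE 0.16, adjusted p = 0.1098) and −0.22 with nanoparticles (SE 0.16, adjusted p = 0.391). Without day 14 replicate 2 the fall with vehicle passed the test (−0.54, adjusted p = 0.0463). Nanoparticles against vehicle gave 0.21 (95% interval −0.14 to 0.57).

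Lgals3 (ENSMUSG00000050335, chromosome 14, 47367751 to 47386160, plus strand) encodes galectin-3, a lectin that macrophages and injured epithelium secrete and that marks damaged lysosomes. Its levels were 366, 405, 422 and 377 TPM at day 14, 262, 299, 299.6 and 312 TPM with vehicle, and 343, 316, 389.8 and 285 TPM with nanoparticles. Every vehicle lung was below every day 14 lung, whereas nanoparticle replicate 3 reached into the day 14 range. Lgals3 fell by 0.39 with vehicle (SE 0.09, adjusted p = 0.0191), which did not pass with day 14 replicate 3 left out (adjusted p = 0.0688) or vehicle replicate 1 left out (0.0640). With nanoparticles the difference was −0.25 (SE 0.09, adjusted p = 0.0827), and −0.32 without replicate 3 (adjusted p = 0.0306). Nanoparticles against vehicle gave 0.14 (95% interval −0.06 to 0.34).

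Trem2 (ENSMUSG00000023992, chromosome 17, 48346401 to 48354147, plus strand), the lipid receptor, measured 65.65, 56.6, 66.0 and 61.2 TPM at day 14. With vehicle it stood at 35.6, 54.8, 40.3 and 45.8 TPM, and with nanoparticles at 55.7, 41.4, 54.2 and 32.9 TPM. The 8 lungs of day 21 were all below those of day 14, by a margin of under 1 TPM for nanoparticle replicate 1. Trem2 fell by 0.62 with vehicle (SE 0.17, adjusted p = 0.0367), which did not pass with day 14 replicate 1, 2 or 3, or vehicle replicate 1, 3 or 4, left out (adjusted p = 0.0644 to 0.106). With nanoparticles the difference was −0.50 (SE 0.17, adjusted p = 0.0654), and −0.63 without nanoparticle replicate 3 (adjusted p = 0.0188) or −0.49 without vehicle replicate 2 (adjusted p = 0.0485). Nanoparticles against vehicle gave 0.12 (95% interval −0.25 to 0.49).

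Apoe (ENSMUSG00000002985, chromosome 7, 19696109 to 19699188, minus strand) encodes the apolipoprotein that loads lipid for efflux and is a ligand of TREM2. It measured 3462, 3120.0, 3489 and 2829 TPM at day 14, 1923, 2482, 2434 and 2491 TPM with vehicle, and 2433, 2125, 3919 and 1961 TPM with nanoparticles. Every vehicle lung was below every day 14 lung. Of the nanoparticle lungs 3 were within the vehicle range, and replicate 3, the library high in neutrophil genes, was the highest of all 12. The difference was −0.49 with vehicle (SE 0.19, adjusted p = 0.113) and −0.33 with nanoparticles (SE 0.19, adjusted p = 0.249). Without nanoparticle replicate 3, whose spread enters the estimate for all groups, Apoe fell in both comparisons (6.97% and 8.68% of all genes then fell), by 0.48 with vehicle (adjusted p = 0.00832) and by 0.59 with nanoparticles (adjusted p = 0.00373). Nanoparticles against vehicle gave 0.16 (95% interval −0.25 to 0.56) with that library and −0.11 without it.

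Lpl (ENSMUSG00000015568, chromosome 8, 68880491 to 68907448, plus strand) encodes lipoprotein lipase, which frees fatty acids from lipoprotein triglyceride. It measured 161, 143, 156 and 146 TPM at day 14, 102, 159, 129.5 and 125 TPM with vehicle, and 139, 128, 182 and 107 TPM with nanoparticles. All 3 groups overlapped, and nanoparticle replicate 3 was again the highest of the 12. The difference was −0.24 with vehicle (SE 0.15, adjusted p = 0.322) and −0.13 with nanoparticles (SE 0.15, adjusted p = 0.592).

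Fabp5 (ENSMUSG00000027533, chromosome 3, 10012548 to 10016607, plus strand) encodes a cytosolic carrier of fatty acids. Levels were 195, 183, 202 and 200.25 TPM at day 14, 163, 193, 194 and 187 TPM with vehicle, and 179.95, 167, 216 and 162 TPM with nanoparticles. The groups overlapped throughout. Differences were −0.09 with vehicle (95% interval −0.28 to 0.09, adjusted p = 0.529) and −0.11 with nanoparticles (−0.29 to 0.08, adjusted p = 0.425), so that a fall as large as that of Spp1 lies outside both intervals.

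Of the 2 tetraspanins, which organise membrane proteins into domains, Cd9 (ENSMUSG00000030342, chromosome 6, 125460266 to 125494791, minus strand) is a protein of the cell surface. It measured 748, 659, 722 and 694 TPM at day 14, 629, 709.9, 686 and 711 TPM with vehicle, and 695, 619, 728 and 635 TPM with nanoparticles. The groups overlapped, and the differences were −0.06 with vehicle (95% interval −0.22 to 0.10, adjusted p = 0.643) and −0.10 with nanoparticles (−0.26 to 0.06, adjusted p = 0.393).

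Cd63 (ENSMUSG00000025351, chromosome 10, 128900989 to 128912822, plus strand), the tetraspanin of late endosomes and lysosomes, measured 544, 522, 542 and 453 TPM at day 14, 361, 444, 399 and 445 TPM with vehicle, and 401, 343, 432 and 341 TPM with nanoparticles. In TPM all 8 lungs of day 21 were below all 4 of day 14; in CPM day 14 replicate 4 overlapped with vehicle. Cd63 fell by 0.34 with vehicle (SE 0.10, adjusted p = 0.0479) and by 0.47 with nanoparticles (SE 0.10, adjusted p = 0.00916). The fall with vehicle was lost without any one of 8 libraries (day 14 replicates 1, 2 and 3, vehicle replicates 1, 2 and 3, nanoparticle replicates 1 and 2, adjusted p = 0.0530 to 0.151), whereas the fall with nanoparticles was kept without each library in turn. Nanoparticles against vehicle gave −0.13 (95% interval −0.35 to 0.09).

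Cd68 (ENSMUSG00000018774, chromosome 11, 69664213 to 69666153, minus strand) encodes a glycoprotein of macrophage lysosomes. The day 14 lungs were nearly equal, at 173, 175, 171 and 172 TPM, a coefficient of variation of 1.02%. With vehicle the level was 91.6, 122, 116 and 128 TPM, and with nanoparticles 142, 129, 159 and 97.8 TPM. Every lung of day 21 was below every lung of day 14. Cd68 fell by 0.61 with vehicle (SE 0.13, adjusted p = 0.0130) and was the one member that kept this call without each library in turn (highest adjusted p = 0.0410). With nanoparticles the difference was −0.39 (SE 0.13, adjusted p = 0.0613). That value passed the test without nanoparticle replicate 3 (−0.50, adjusted p = 0.0138) or vehicle replicate 1 (−0.38, adjusted p = 0.0461).

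The genes tended to be low or high together within single lungs, and the share of all genes that did so was not counted. Vehicle replicate 1 had the lowest TPM of its group in 10 of 10 genes, nanoparticle replicate 4 the lowest in 9 of 10, and nanoparticle replicate 3 the highest in 8 of 10. The 2 exceptions in replicate 3 were Spp1 and Trem2, whose TPM was highest in nanoparticle replicate 1. In CPM Trem2 was highest in nanoparticle replicate 3 (33.9, against 29.6 in replicate 1). At day 14 the order was more mixed, with replicate 3 highest in 6 genes. The mean log2 CPM of the 15 macrophage genes ran with this pattern: it was 6.28 to 6.42 in the day 14 lungs, 5.75 in vehicle replicate 1 and 5.98 to 6.04 in the other vehicle lungs. In nanoparticle replicates 1 to 4 it was 6.14, 6.02, 6.53 and 5.78. The part of macrophage content in the levels of the 10 genes was not tested. Whether neutrophil RNA added to the macrophage mean of nanoparticle replicate 3 was not tested either.

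**Figure D3:**
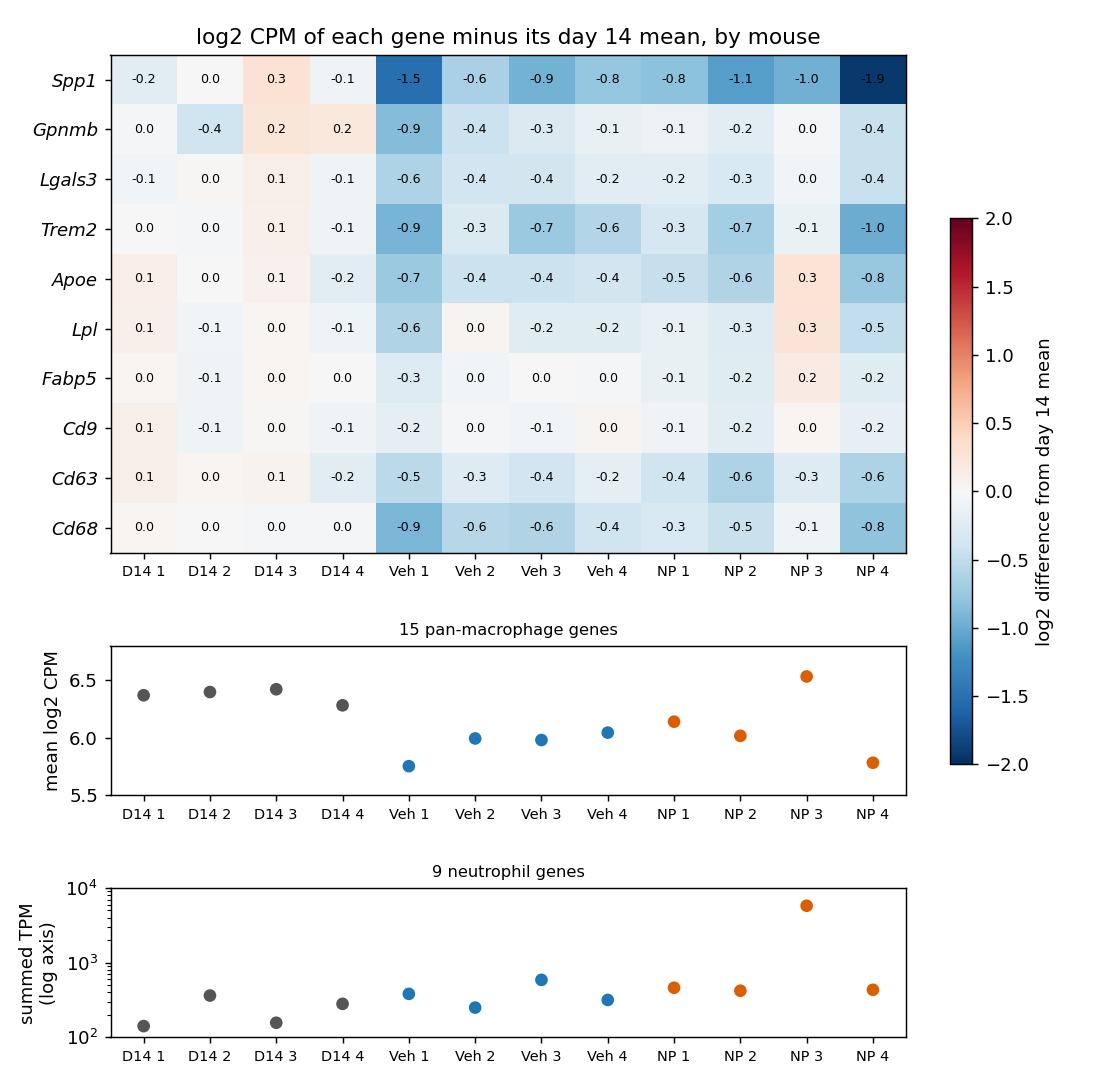
Upper panel: log2 CPM of each gene (rows) in each mouse (columns) minus its mean at day 14, coloured from blue (lower) to red (higher). Lower panels: mean log2 CPM of 15 macrophage genes and summed TPM of 9 neutrophil genes (log axis) in the same mice. Vehicle replicate 1 and nanoparticle replicate 4 are the bluest columns and have the lowest macrophage means (5.75 and 5.78), and nanoparticle replicate 3 has the highest macrophage mean (6.53) and 5783 TPM of neutrophil genes.

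By Pearson r of log2 CPM across the 12 libraries, Lgals3 and Cd68 were the most alike pair of members (r = 0.960, Spearman rho 0.895). Gpnmb and Cd63 were the least alike by r (r = 0.513, rho 0.601). By rho the most alike pair was Trem2 and Cd68 (0.909) and the least alike Spp1 and Cd9 (0.455). With the group means subtracted, r was 0.890 for Lgals3 and Cd68, below the 0.931 of Trem2 and Lpl. For Gpnmb and Cd63 it was 0.384. Spp1 ran closest to Trem2 (r = 0.905, rho 0.888, and 0.855 with the group means subtracted). The libraries fall into groups and share their scaling, so these values describe likeness and carry no test.

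Spp1 was also set against Cd68, Apoe and the macrophage genes within each lung. The ratio of Spp1 to Cd68 in TPM was 6.62 to 9.72 at day 14, 5.34 to 7.29 with vehicle and 5.56, 4.97, 4.37 and 3.67 in nanoparticle replicates 1 to 4. The nanoparticle lungs were thus all below the day 14 lungs and overlapped with vehicle. The ratio of Apoe to Spp1 was 2.09 to 3.03 at day 14, 2.80 to 3.93 with vehicle, and 3.07, 3.31, 5.63 and 5.46 with nanoparticles. In both ratios vehicle overlapped with day 14. Relative to the mean of the 15 macrophage genes, Spp1 was 0.54 lower on the log2 scale with vehicle and 0.95 lower with nanoparticles than at day 14, in both cases without overlap. Cd68 was 0.20 and 0.16 lower on the same relative scale, also without overlap. For Apoe (−0.07 and −0.14), Gpnmb (−0.01 and 0.05) and Lgals3 (0.03 and −0.01) the groups overlapped. Fabp5 and Cd9, whose own levels had overlapped, stood 0.33 and 0.36 higher relative to the macrophage genes with vehicle than at day 14, without overlap. Relative Trem2 was 0.29 lower with nanoparticles than at day 14, and relative Cd63 was 0.30 lower with nanoparticles than with vehicle, each without overlap. These relative values were not tested, and the share of all genes without overlap on this scale was not counted. The mean of the macrophage genes was itself lower with vehicle (5.75 to 6.04) than at day 14 (6.28 to 6.42). A gene with an unchanged level thus stands higher on this scale with vehicle. The relative values with nanoparticles include replicate 3 and were not computed without it.

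**Figure D4:**
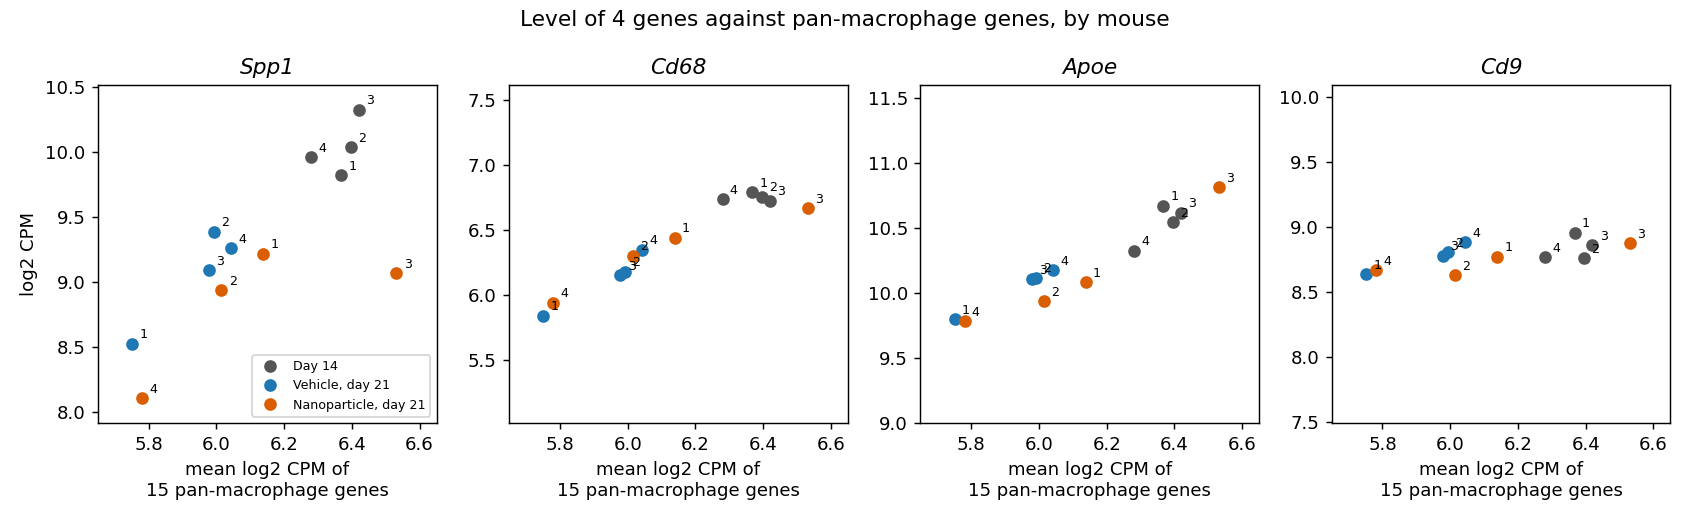
Log2 CPM of Spp1, Cd68, Apoe and Cd9 (vertical axes, equal span) against the mean log2 CPM of 15 macrophage genes (horizontal axes) in the 12 mice, coloured by group and numbered by mouse. Day 21 points of Spp1 lie below the day 14 points, including nanoparticle replicate 3 at a macrophage mean of 6.53, while the highest Apoe value of the 12 is that of nanoparticle replicate 3 and the Cd9 points of the 3 groups overlap.

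Other genes known from SPP1-expressing or lipid-associated macrophages showed falls of like size. Of 24 such genes, with the 10 left out, 11 fell and 1 rose with vehicle (median −0.39), and 11 fell and 1 rose with nanoparticles (median −0.33). Pld3, a phospholipase D family member of lysosomes, fell by 0.52 with vehicle and by 0.53 with nanoparticles (adjusted p = 0.00386 and 0.00237). The lysosomal protease gene Ctsb fell by 0.51 and the actin-capping gene Capg by 0.42 with vehicle (adjusted p = 0.0108 and 0.0112), and the lysosomal genes Ctsd and Hexa fell by 0.63 and by 0.36 with nanoparticles (adjusted p = 0.0110 and 0.00850). The gene that rose was Cd36, a scavenger receptor that endothelium also makes, by 0.31 with vehicle and 0.42 with nanoparticles (adjusted p = 0.0112 and 0.00179). The count of falls with vehicle was 7 without day 14 replicate 1 or vehicle replicate 3 and 5 without day 14 replicate 3 or vehicle replicate 1. With nanoparticles it was 6 without day 14 replicate 1 or nanoparticle replicate 2 and 4 without day 14 replicate 3 or nanoparticle replicate 4. It was 16 with vehicle and 15 with nanoparticles when nanoparticle replicate 3 was left out.

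Mmp12, the macrophage elastase, was the gene of this list with the smallest p between nanoparticles and vehicle. It stood at 141 ± 13.2 TPM with nanoparticles and 88.2 ± 18.8 TPM with vehicle, without overlap, a log2 difference of 0.65 (SE 0.14) that did not pass the test over all genes (adjusted p = 0.557). DESeq2 called this gene higher with nanoparticles (0.66, adjusted p = 0.0152). At day 14 it stood at 125 ± 20.6 TPM.

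The lysosome genes, which share 8 members with that list, moved mostly downward. Of 28, 13 fell with vehicle (median −0.28) and 16 with nanoparticles (median −0.26), and none rose. In each comparison 27 of the 28 values were below 0. Ctss, a macrophage-rich protease, fell by 0.64 and by 0.60 (adjusted p = 0.00530 and 0.00479). The protective protein gene Ctsa and the progranulin gene Grn fell by 0.41 and by 0.39 with vehicle (adjusted p = 0.00782 and 0.00881). With nanoparticles 8 fell without day 14 replicate 3, 10 without nanoparticle replicate 2 and 9 without nanoparticle replicate 4. Of 8 genes of the MITF/TFE transcription factors, which drive lysosome genes and Gpnmb, Tfeb (−0.28, adjusted p = 0.0259) and Tfe3 (−0.18, adjusted p = 0.0318) fell with vehicle, and Tfec fell with nanoparticles (−0.51, adjusted p = 0.0302). Tfeb did not pass with day 14 replicate 4 or vehicle replicate 1, 2 or 3 left out, Tfe3 not with day 14 replicate 3 or 4, nanoparticle replicate 1 or any vehicle replicate left out, and Tfec not with day 14 replicate 1 or 3 or nanoparticle replicate 2 or 4 left out (adjusted p = 0.0547 to 0.0990).

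Around TREM2, 0 of 14 genes linked to its signalling or shedding passed the test in edgeR in any of the 3 comparisons. DESeq2 called 2 falls with vehicle. At an unadjusted p under 0.05 in edgeR the counts were 5 with vehicle, 2 with nanoparticles and 4 for nanoparticles against vehicle. Of all 17909 genes 4898, 5516 and 762 had such a p in the same comparisons. The adaptor gene Tyrobp differed by −0.43 with vehicle (adjusted p = 0.0617) and by −0.20 with nanoparticles (adjusted p = 0.347). Without nanoparticle replicate 3 Tyrobp fell in both (−0.42 and −0.37, adjusted p = 0.00462 and 0.0113), and with vehicle also without nanoparticle replicate 4 (adjusted p = 0.0283). Without day 14 replicate 2, Adam10 and Malt1 fell with vehicle, and Adam10 fell and Pik3cd rose with nanoparticles (adjusted p = 0.0137 to 0.0399). All 14 values were above 0 for nanoparticles against vehicle (0.02 to 0.26), with Syk, the kinase that docks on TYROBP, at 0.25 (adjusted p = 0.894) and the kinase gene Btk at 0.23 (adjusted p = 0.898). The 14 genes summed to 719, 701, 884 and 615 TPM in nanoparticle replicates 1 to 4, against 614 to 673 TPM with vehicle. The highest sum was thus that of replicate 3, the library high in neutrophil genes.

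Among 11 genes of osteopontin receptors and its kinase, 2 fell and 1 rose with vehicle, and 3 fell and 2 rose with nanoparticles. Itga5, the alpha chain of the fibronectin receptor, fell by 0.52 and by 0.43 (adjusted p = 0.00186 and 0.00239), and Itga8, an integrin chain of mesenchymal cells, rose by 0.57 in both (adjusted p = 0.0147 and 0.0107). Itga4, an integrin chain of leukocytes, rose by 0.66 with nanoparticles (adjusted p = 0.00279). The calls of Itga5, Itga8 and Itga4 were kept without each library in turn, and the count of falls went to 1 without day 14 replicate 1 or 3 in both comparisons, without vehicle replicate 1 or 3 with vehicle, and without nanoparticle replicate 1, 2 or 4 with nanoparticles. The receptor gene Cd44 measured 94.9 ± 13.3, 84.1 ± 7.90 and 90.5 ± 10.4 TPM in the day 14, vehicle and nanoparticle lungs and passed the test in none of the comparisons.

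The lipid lists around Apoe, Lpl and Fabp5 gave the counts below. Over all genes tested 10.3% changed in either direction with vehicle and 14.7% with nanoparticles. Of 11 tested partners of lipoprotein handling, 1 fell and 1 rose with vehicle, and 0 fell and 1 rose with nanoparticles. Vldlr, a lipoprotein receptor, rose by 0.34 and by 0.36 (adjusted p = 0.0102 and 0.00469). Apoc1, which lies beside Apoe on chromosome 7 (19689481 to 19692660, minus strand), fell by 0.57 with vehicle (adjusted p = 0.0324), which did not pass with day 14 replicate 1, 3 or 4, or vehicle replicate 1, 2 or 3, left out (adjusted p = 0.0523 to 0.101). With nanoparticles Apoc1 and Lrp1 fell without day 14 replicate 2 (adjusted p = 0.0280 and 0.0441). Gpihbp1, which anchors lipoprotein lipase on capillaries, stood at 234 ± 16.8, 245 ± 20.1 and 257 ± 11.2 TPM in the day 14, vehicle and nanoparticle lungs and did not pass the test. Of 10 genes of LXR-driven sterol efflux, 1 fell (Abcg1) and 1 rose (Pltp) with vehicle and 0 fell and 1 rose (Pltp) with nanoparticles. Each of these 3 calls was lost without at least 7 of the 12 libraries in turn, among them day 14 replicates 1, 3 and 4 (adjusted p = 0.0503 to 0.137). Abcg1 fell with nanoparticles without day 14 replicate 2 or nanoparticle replicate 3 (adjusted p = 0.0155 and 0.0397). Of 16 genes of fatty acid uptake and storage, 0 fell and 2 rose with vehicle (Cd36 and Soat1) and 0 fell and 1 rose with nanoparticles (Cd36). Soat1 did not pass with day 14 replicate 1 or 3, or vehicle replicate 1, 2 or 4, left out (adjusted p = 0.0597 to 0.0784). Without nanoparticle replicate 3, 2 genes of this list fell in each comparison: Lipa, the lysosomal acid lipase (−0.38 with vehicle and −0.37 with nanoparticles, adjusted p = 0.0302 and 0.0368), and Ppard, a nuclear receptor for fatty acids (−0.17 and −0.23, adjusted p = 0.0458 and 0.0147). With vehicle Lipa also fell without nanoparticle replicate 4 (adjusted p = 0.0154).

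In the protein families of the members, 3 of 10 other tetraspanins fell with vehicle and 4 with nanoparticles, led by Tspan4 (−0.76 and −0.73, adjusted p = 0.00325 and 0.00239). With vehicle Tspan4 alone fell without day 14 replicate 1, 2 or 3, vehicle replicate 1, 2 or 3 or nanoparticle replicate 1. Of 7 tested genes of other galectins and the galectin-3 binding protein, 2 fell in each comparison. Lgals1, a galectin of fibroblasts and macrophages, fell by 0.62 with vehicle and by 0.74 with nanoparticles (adjusted p = 0.00232 and 0.000517). The second gene was Lgals3bp, whose fall by 0.31 with nanoparticles (adjusted p = 0.0314) did not pass with day 14 replicate 2 or 3, or nanoparticle replicate 2, 3 or 4, left out (adjusted p = 0.0579 to 0.0954).

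Markers of other cells moved in the same lungs. Of the 15 macrophage genes, 6 fell with vehicle and 4 with nanoparticles, and C1qb, a chain of the complement protein C1q, fell by 0.90 and by 0.76 (adjusted p = 0.0133 and 0.0211). With nanoparticles C1qb did not pass with day 14 replicate 2 or 3, or nanoparticle replicate 2, left out (adjusted p = 0.0550 to 0.0615). The macrophage count with vehicle was 1 without day 14 replicate 3 or vehicle replicate 1 and 2 without vehicle replicate 3. With nanoparticles it was 1 without day 14 replicate 1 or nanoparticle replicate 4 and 0 without day 14 replicate 2 or 3 or nanoparticle replicate 2. It was 9 with vehicle and 6 with nanoparticles when nanoparticle replicate 3 was left out. Of 13 alveolar macrophage genes, 1 fell and 1 rose with vehicle and 2 fell and 1 rose with nanoparticles, with Ear1 rising by 0.76 and 0.83 (adjusted p = 0.00660 and 0.00310). Without nanoparticle replicate 3, 4 of them fell in each comparison, and 0 fell without day 14 replicate 1 or 3 in either, without vehicle replicate 1 or 3 in the first, or without nanoparticle replicate 4 in the second. Their summed level was 1284 to 1837 TPM at day 14, 1137 to 1224 TPM with vehicle and 1013 to 2535 TPM with nanoparticles.

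All 8 markers of the transitional alveolar epithelium (Krt8, Krt7, Sfn and others), a state of injured alveoli, fell in both comparisons, from a summed 1002 to 1137 TPM at day 14 to 714 to 851 TPM with vehicle and 679 to 841 TPM with nanoparticles. Of 8 scar fibroblast genes 4 fell with vehicle and 6 with nanoparticles, from a summed 1754 to 2165 TPM to 1095 to 1553 TPM and 966 to 1250.3 TPM. The count with vehicle was 2 without day 14 replicate 3, vehicle replicate 1 or vehicle replicate 3. Neutrophil genes (0 of 9), dendritic cell genes (0 of 8), adipocyte genes (0 of 8) and capillary genes (0 of 8) passed the test in edgeR in none of the comparisons. DESeq2 called 2 neutrophil genes and 1 capillary gene higher with nanoparticles and 1 dendritic cell gene higher with vehicle, each against day 14. The capillary genes Cdh5 and Ednrb rose with nanoparticles when nanoparticle replicate 3 was left out (adjusted p = 0.0207 and 0.0342). With other single libraries left out at most 1 dendritic cell or capillary gene rose in either comparison with day 14. At an unadjusted p under 0.05 in edgeR, 8 neutrophil genes differed between nanoparticles and day 14 and 5 between nanoparticles and vehicle, and at most 2 genes of each other list in any comparison. Of all 17909 genes 5516 had such a p between nanoparticles and day 14 and 762 between nanoparticles and vehicle. No gene of these lists was at 0 in every lung of a group. Platelet genes rose in 6 of 7 with nanoparticles, from a summed 36.8 to 49.4 TPM at day 14 to 58.9 to 85.9 TPM, against 39.3 to 58.6 TPM with vehicle. The part of these cell types in the changes of the 10 genes was not tested.

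The genes whose pattern over the 12 libraries was most like that of Spp1 were named by Pearson r of log2 CPM among genes with an average log2 CPM of at least 1. They were Gusb, a lysosomal glucuronidase (r = 0.980, rho 0.972), Tnc, the matrix protein tenascin C (0.973, rho 0.972), Loxl2, a collagen cross-linking enzyme (0.970, rho 0.972), Col5a1, a fibrillar collagen chain (0.968, rho 0.944), and Anxa3, an annexin (0.968, rho 0.951). With the group means subtracted their r was 0.886 to 0.938. For Gpnmb they were Erp44 (r = 0.956), Ppp6r1 (0.951), Myo5a (0.949), Srp72 (0.937) and Atp6v1b2, a subunit of the proton pump of lysosomes (0.920), and 0.890 to 0.941 with the group means subtracted. None of the 10 names is shared between the lists.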

How the data were processed

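The libraries held polyadenylated RNA of whole lungs from 12 mice, read from both ends over 151 bp, per the labels' protocols. Tools named in the submitters' processing notes are STAR 2.7.8a and RSEM 1.3.3, with cutadapt 4.8, FastQC 0.11.8 and MultiQC 1.20, and the build is GRCm38. No annotation release or strand setting was given in the sources used here. RSEM's expected counts had been rounded in the table that the authors deposited, with 1 row per gene, and the TPM values were deposited by the authors beside them, scaled to the same total in each library. The deposited FPKM values were not used. Columns were matched to mice through the labels, and 0 were left without one.

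Low genes were left out with filterByExpr (its default of about 10 counts, scaled to library size, in as many libraries as a group holds, and 15 counts in all). The counts of all 12 libraries entered one quasi-likelihood fit in edgeR 4.0.16 (R 4.3.3, statmod 1.5.0) with TMM scaling, robust dispersion and one group term. The 3 comparisons were two-sided contrasts with adjusted p under 0.05 as the threshold (common biological coefficient of variation 0.119). Each library is 1 mouse, and p-values set the difference between groups against the spread between these mice. Library pairs of 1 group differed beyond sampling noise (chi-square per degree of freedom 7.945 to 33.13 over 18 pairs). Gene positions are from GENCODE M21 and promoters from RefSeq, both on GRCm38. DESeq2 1.42.0, limma 3.58.1 on log2(TPM + 0.5) and log2(TPM + 1), other scaling, no filter and each library left out were alternatives.

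The members and the 24 gene lists (268 entries, 263 tested) were chosen with earlier results of these data known, so their counts are descriptions. The rule for names took all members, up to 4 genes past the threshold with the smallest adjusted p per list and comparison, otherwise up to 2 by p, and the 5 genes most like Spp1 and like Gpnmb. The text prints a part of these, and Cd44, Gpihbp1 and the day 14 level of Mmp12 were added after their values were seen. Scripts were tested on simulated counts. Every list named in the report has its result there, and the lists of osteoclast, macrophage signal, AT1, AT2 and lipofibroblast genes are given under the other observations.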

Additional observations from a re-analysis of the deposited data

Results flagged for a closer look

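The TPM of Apoe in vehicle replicate 1 was 1922.55, far below the other 3 vehicle lungs at 2434 to 2491 TPM, by a gap that exceeded Dixon's limit for 4 samples. It was the only one among 30 groups of 4 values examined (10 genes in 3 groups) to do so, and chance flags about 1 in 20 such groups. Vehicle replicate 1 had the lowest TPM of its group in 10 of 10 genes. The cause was not tested.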

How the results depend on the processing

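For vehicle against day 14, 5 of the 10 genes fell, and 4 with RLE size factors or library totals alone and 6 in DESeq2 or with only these 2 groups in the fit. The count was 2 without the filter on low counts, and 3 with limma on log2(TPM + 0.5) or on log2(TPM + 1). With the replicate block it was 2 (Lgals3 and Cd68). The mouse numbers do not pair the samples: deviations of libraries with the same number correlated by −0.074 to 0.148 over 12 pairs, and 2 of 8 libraries correlated best with their own number in each comparison. With each library left out in turn 1 to 6 genes fell, Cd68 alone without day 14 replicate 3 or vehicle replicate 1, 2 without vehicle replicate 3, and 3 without day 14 replicate 1 or 2. For nanoparticles against day 14 the count was 2 under each alternative that kept all libraries, the replicate block included, except 4 in DESeq2, and 2 to 6 with each library left out. Spp1 and Cd63 were called in this comparison under every alternative run. The 6 genes were those without nanoparticle replicate 3, where also 8 in place of 4 had groups without overlap. For nanoparticles against vehicle the count was 0 under every alternative. In that comparison uncalled log2 differences changed sign when single libraries were left out. Trem2 ranged from −0.024 to 0.254, Apoe from −0.115 to 0.275 and Lpl from −0.0501 to 0.218, each below 0 only without nanoparticle replicate 3. Fabp5 ranged from −0.116 to 0.0264 and was above 0 without nanoparticle replicate 2 or 4 or vehicle replicate 3. Over all genes, 1845 changed with vehicle, 2607 in DESeq2 and 1032 and 1051 with limma, and 1012 without day 14 replicate 1, 719 without day 14 replicate 3, 744 without vehicle replicate 1 and 866 without vehicle replicate 3. With nanoparticles 2636 changed, 3315 in DESeq2 (1719 of them lower), 1584 and 1607 with limma and 1672 with only these 2 groups in the fit. The number was 1570 and 1363 without day 14 replicate 1 or 3, and 1625 and 1384 without nanoparticle replicate 2 or 4. The shares of all genes given beside the counts of members move with these numbers. The replicate block and the alternatives of filter and test give no value for overlap, which uses CPM alone. The cause of these shifts was not tested. Each group held 4 mice, and whether the spread between them or the sequencing depth limits these genes was not tested.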

Other observations

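Lists of genes around the macrophages that the report does not describe gave these counts. Of 10 tested signals that recruit or feed macrophages, 3 fell and 1 rose with vehicle and 1 fell and 1 rose with nanoparticles. Leaving out day 14 replicate 3, vehicle replicate 1 or vehicle replicate 3 took the falls with vehicle to 0, and leaving out vehicle replicate 2 took them to 1. With nanoparticles they went to 0 without day 14 replicate 3 or nanoparticle replicate 1, 2 or 4 and to 2 without day 14 replicate 4 or nanoparticle replicate 3. The rise with vehicle was lost without day 14 replicate 3, and 2 rose with nanoparticles without day 14 replicate 2 or nanoparticle replicate 4. Cx3cl1, a membrane-bound chemokine, rose by 0.42 on the log2 scale with nanoparticles against day 14 (adjusted p = 0.00511 in edgeR). Ccl2, the chemokine of CCR2-bearing monocytes, fell by 1.18 with vehicle (adjusted p = 0.0178), which did not pass with day 14 replicate 3, or vehicle replicate 1 or 3, left out (adjusted p = 0.0533 to 0.0666). Of 7 tested osteoclast genes, which share regulators with these macrophages, 3 fell with vehicle and 1 with nanoparticles. The count with vehicle was 1 with day 14 replicate 3, vehicle replicate 1 or vehicle replicate 3 left out. With nanoparticles it was 0 without day 14 replicate 1 or 3 or nanoparticle replicate 1 or 4, and 3 without nanoparticle replicate 3. Dcstamp, a receptor needed for cell fusion, fell by 1.19 with vehicle (adjusted p = 0.00345) and kept this call without each library in turn. Acp5, the tartrate-resistant phosphatase, fell by 0.77 with vehicle (adjusted p = 0.0251), which did not pass with day 14 replicate 1 or 3, or vehicle replicate 1, 3 or 4, left out (adjusted p = 0.0507 to 0.0740).

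Of 8 alveolar type 2 genes 3 rose with vehicle and 2 with nanoparticles, of 7 alveolar type 1 genes 2 fell and 1 rose in each comparison, and of 8 genes of lipid-storing alveolar fibroblasts 3 rose in each. The type 2 count with vehicle was 0 with day 14 replicate 3 or vehicle replicate 4 left out, and 1 when it was day 14 replicate 1 or 2 or vehicle replicate 1 or 3. With nanoparticles it was 1 without day 14 replicate 3 or nanoparticle replicate 1 or 2, and 4 without day 14 replicate 4. Falls of type 1 genes went to 1 with vehicle without any one of 8 libraries (day 14 replicates 2, 3 and 4, vehicle replicates 1, 2 and 3, nanoparticle replicates 1 and 2) and with nanoparticles without nanoparticle replicate 4. Inmt, a methyltransferase of alveolar fibroblasts, rose by 0.75 in both (adjusted p = 0.00720 and 0.00481).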
